A study of Homo sapiens with 16 samples.

Results

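The experiment asked whether the effect of combined kinase inhibitors on melanoma gene expression differed between a high fat and a ketogenic diet. It used all 16 of the 16 libraries of the series. The tumour was A375 MA2-Luc, a derivative of the established human melanoma line A375, grown as lung metastases in NSG mice, which are severely immunodeficient. The 4 groups, each of 4 libraries, were mice fed high fat chow or ketogenic chow, each with and without the inhibitors. The labels name the drugs only as inhibitors of BRAF kinase and MEK 1/2, given by gavage 3 times a week for 5 weeks. Doses are not given, nor whether the mice without inhibitors received a vehicle, so gavage and drug cannot be told apart. All 4 groups share the tumour line, the host strain and the lung site. The mice had few lymphocytes of their own, and 1 line is 1 tumour genotype. Whether each library came from its own mouse is not given, nor whether cells were cultured before extraction, so p-values measure the spread between these libraries. Groups without inhibitors are called untreated below.

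A375 carries an activating BRAF mutation, which drives the kinase chain from BRAF through MEK to ERK without growth factor input. ERK feeds cyclin D and the E2F transcription factors that open S phase, and it induces its own brakes, the DUSP phosphatases and SPRY proteins. A ketogenic diet supplies almost no carbohydrate, so that the liver makes ketone bodies from fat. Metastases that grow during treatment are those that tolerate the drugs.

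The quantity tested was a difference of effects. For each gene the log2 fold change of inhibitors against none was taken on each diet, and the high fat effect was subtracted from the ketogenic effect. A value below 0 thus means a higher inhibitor to untreated ratio on the high fat diet. Of 16012 genes tested, 1444 passed at an adjusted p under 0.05 (9.02%; edgeR quasi-likelihood test, Benjamini-Hochberg), 698 above 0 (4.36%) and 746 below 0 (4.66%). Their median absolute difference was 0.89, against 0.35 over all genes tested, and 593 exceeded a 2-fold difference. At the threshold, TRA2B, a splicing factor, lay just inside (log2 -0.48, adjusted p = 0.04987), and the gene just outside had an adjusted p of 0.05008. In the same test 4560 of the 16012 genes (28.5%) had an unadjusted p under 0.05.

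The genes past the test were sorted by the ratio of the smaller to the larger of their inhibitor effects. Where the high fat effect was the larger, a gene was blunted on the ketogenic diet at a ratio of at least 0.25, lost between -0.25 and 0.25, and reversed at -0.25 or less. Where the ketogenic effect was the larger, a gene was reversed at -0.25 or less and otherwise stronger. Lost effects made up 901 genes (62.4%), reversed 375 (25.97%), blunted 147 (10.18%) and stronger 21 (1.45%). Sorting uses the values of the test itself, so the classes are a description, and 238 genes lay within 0.05 of a class bound.

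**Figure D1:**
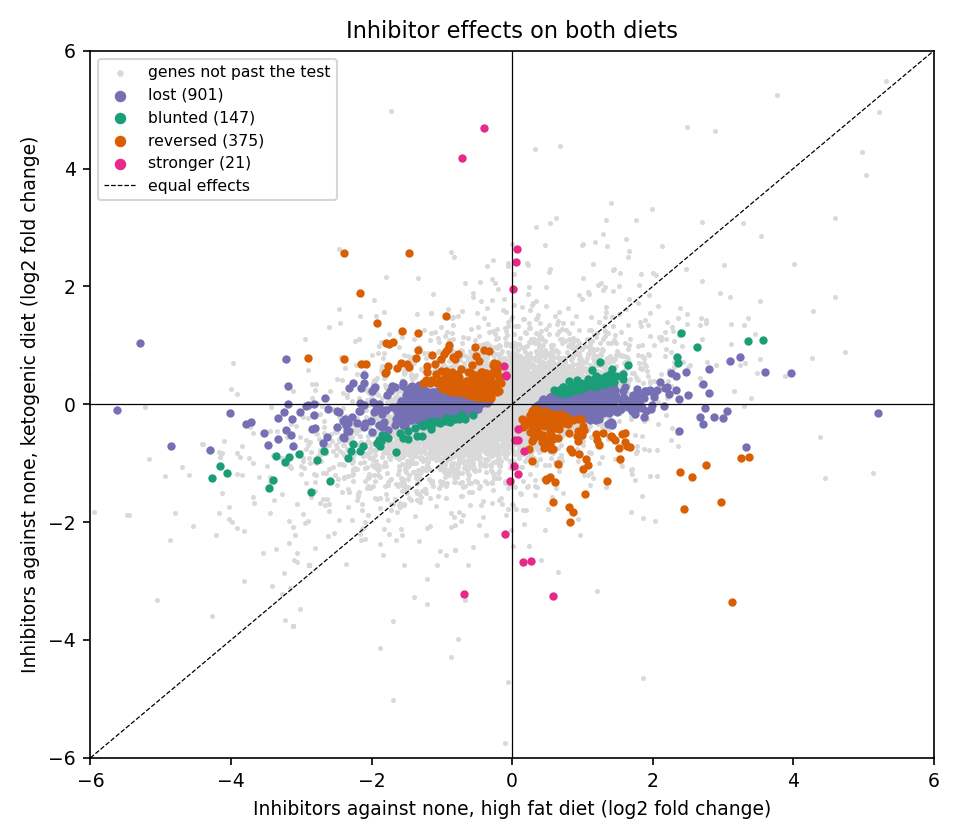
Inhibitor effect on the high fat diet (horizontal, log2 fold change) against that on the ketogenic diet (vertical, log2 fold change) for 16012 genes, with 1444 genes past the test coloured by class. Coloured points spread along the horizontal axis, where 901 lost effects lie near a ketogenic effect of 0; 18 genes, 8 of them past the test, lie outside the axes.

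The classes differed in the size of their inhibitor effects and in how many of these passed on their own, which follows in part from the sorting. Lost genes had a median absolute effect of 0.96 on the high fat diet, against 0.098 on the ketogenic diet, and all 901 passed the test on the high fat diet, against 0 on the ketogenic diet. Blunted genes went from 1.18 to 0.36, and 9 of 147 passed on both diets. Reversed genes had 0.53 and 0.35, and only 9 of 375 passed on both diets, while 56 passed on neither. Stronger genes had 0.091 on the high fat and 1.95 on the ketogenic diet, and 19 of 21 passed on the ketogenic diet. Among all genes tested, 42.3% passed on the high fat diet, against 1.74% on the ketogenic diet. In the reversed class the median SE of the ketogenic effect was 0.16, and 17 of 375 genes passed on that diet. That SE was 0.15 in the lost and in the blunted class and 0.41 in the stronger class.

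The same difference can be read between the diets. Among the 1444 genes, 1144 had the larger diet gap in untreated tumours and 300 under inhibitors. The diet comparison passed on its own for 1013 of them in untreated tumours and for 23 under inhibitors. Among all 16012 genes tested it passed for 2163 (13.5%) in untreated tumours and for 27 (0.169%) under inhibitors. In 699 of the 1444 genes (48.41%) the 4 untreated high fat libraries lay all above or all below the other 12, against 11.5% of all genes tested. The inhibitor-treated high fat libraries stood apart in this way in 221 genes (15.3%, against 3.4%), the untreated ketogenic libraries in 29 (2.01%, against 1.04%) and the inhibitor-treated ketogenic libraries in 4 (0.28%, against 0.387%). Standing apart and passing the test come from the same values, so these shares are a description.

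**Figure D2:**
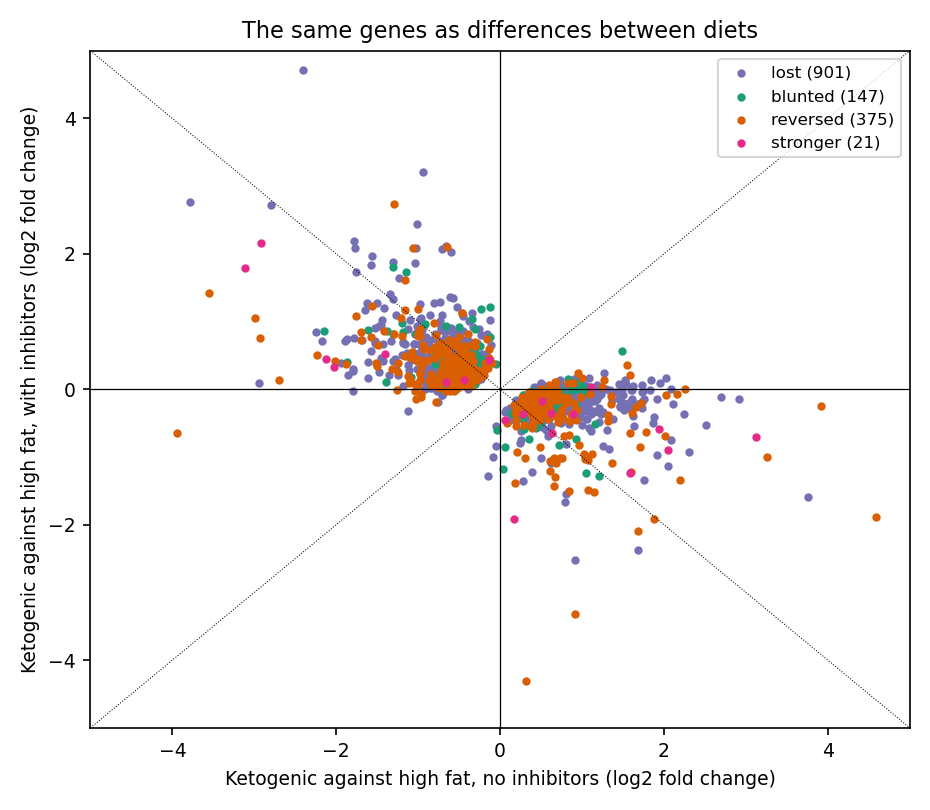
Ketogenic against high fat diet in untreated tumours (horizontal, log2 fold change) and under inhibitors (vertical, log2 fold change) for the genes past the test, coloured by class. Most of the cloud is wider than it is tall, with 1144 genes having the larger gap in untreated tumours; 7 genes lie outside the axes, and dotted lines mark equal and opposite gaps.

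Library properties moved with the groups. Totals ran from 37.1 to 77.3 M estimated counts. Ribosomal RNA took 21.7 to 50% of the counts in untreated high fat libraries, 15 to 20% with inhibitors, 15.2 to 33.7% in untreated ketogenic libraries and 4.1 to 8.37% with inhibitors. Without the 3 libraries over 30%, 0 genes passed in edgeR (2919 at an unadjusted p under 0.05, smallest adjusted p = 0.0508), yet all 1443 of the genes still tested kept their sign, with a median of 0.86 in the reported direction and 1417 at an unadjusted p under 0.05. A fit that took in the ribosomal RNA share as a term gave 30 genes, 28 of them among the 1444, and all 1444 kept their sign. Leaving out single libraries gave 407 genes (without untreated ketogenic replicate 2) to 2636 (without inhibitor-treated ketogenic replicate 4), and 370 genes passed in each of the 16 fits. These genes were chosen on the same libraries, so that their kept signs are no independent sign of stability. The number of genes past the test depended on the libraries. SOX10, a transcription factor of the melanocyte lineage, stood at 726 to 934 CPM (counts scaled to a common library size) and MITF at 99.2 to 141, whereas the pigment genes PMEL (0.802 to 5.07), MLANA (0.0155 to 0.799) and TYR (0 to 3.94) were low.

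**Figure D3:**
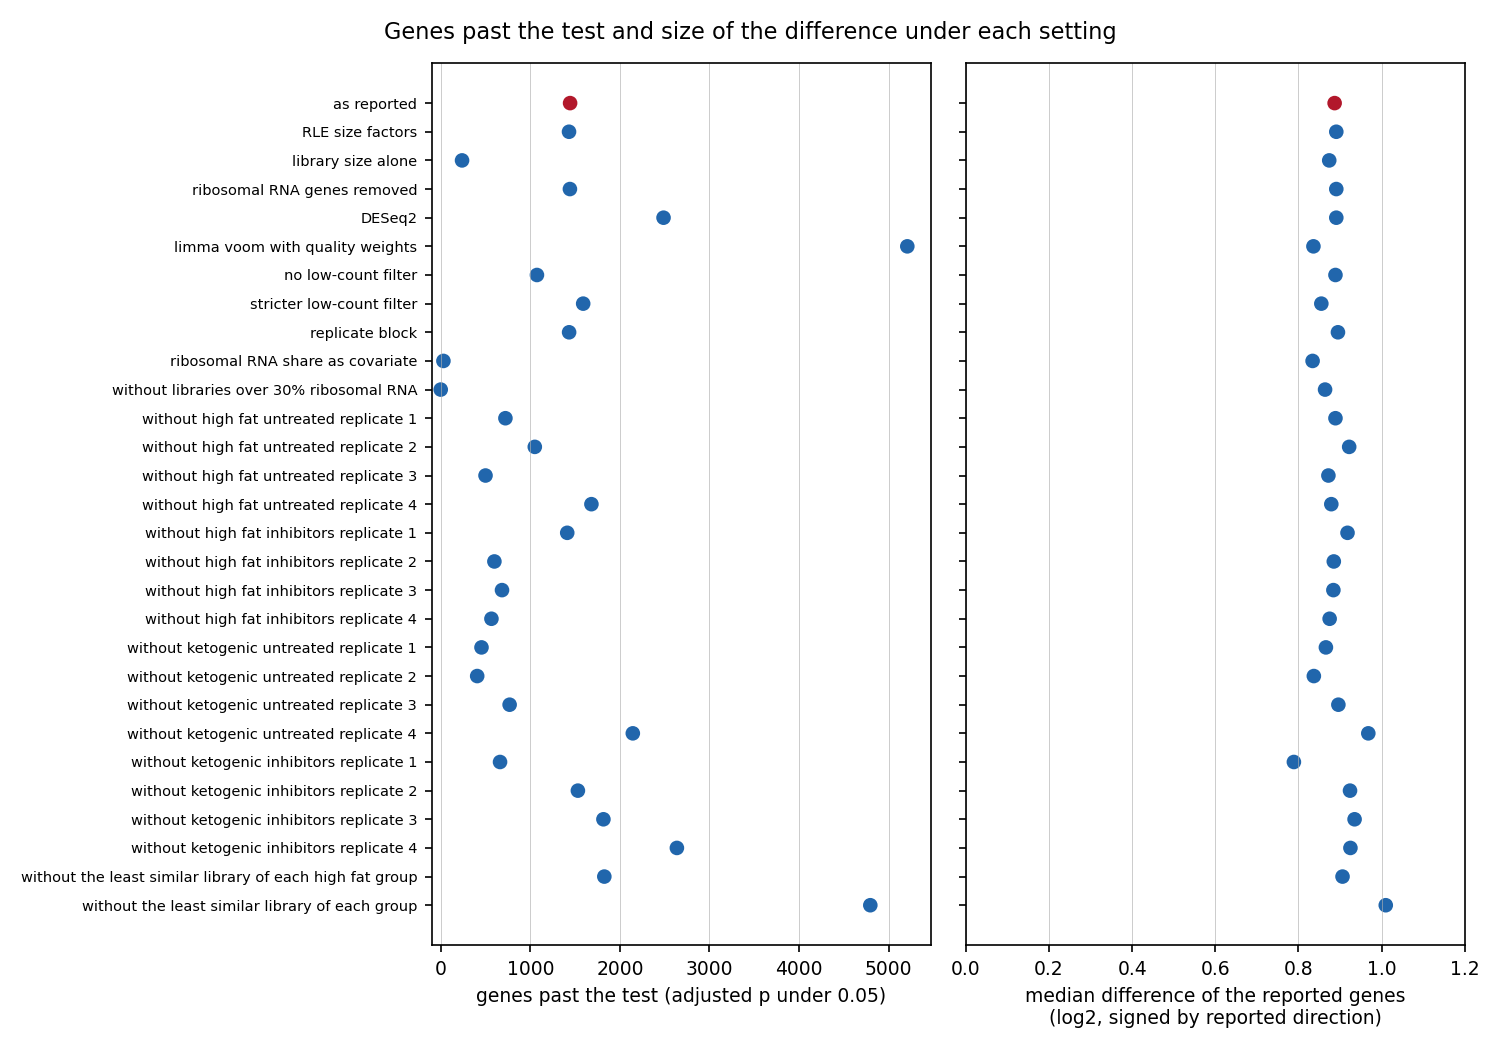
Number of genes past the test (left) and median difference of the 1444 reported genes signed by their reported direction (right, log2) in the reported fit (red) and under each alternative (blue). The count runs from 0 to 5208 while the median stays between 0.79 and 1.01.

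Genes of DNA replication and S phase formed the largest group past the test among the 35 gene lists examined. Of 46 tested, 36 had a difference below 0 (78.3%, against 9.02% of all genes) and 0 above 0. The list had a median log2 effect of 1.33 on the high fat diet, where 43 members rose, and of -0.03 on the ketogenic diet, where 0 passed. The median difference was -1.295, against 0.03 over all genes. Of the 36, 35 were lost and 1, RFC4, a subunit of the clamp loader, was reversed. Untreated high fat tumours had the lowest mean of the 4 groups in 46 of 46 members, and all 4 of their libraries lay under the other 12 in 33. Among all 16012 genes tested these counts were 5452 and 1007. They were 38 and 3 of 38 genes of G2 and mitosis, and 25 and 8 of 25 genes of homologous recombination and Fanconi repair. The lowest mean was thus not particular to the S phase list. On the relative scale (log2 CPM minus the gene's mean, median over the S phase list) the untreated high fat libraries stood at -1.34 to -0.63, the inhibitor-treated high fat libraries at 0.30 to 0.59, the untreated ketogenic libraries at -0.29 to 0.53 and the inhibitor-treated ketogenic libraries at -0.34 to 0.53. In both ketogenic groups 1 library lay under the rest, replicate 4 without and replicate 1 with inhibitors. Without the 3 libraries richest in ribosomal RNA, 0 of the 46 passed in edgeR with the same median of -1.295, and with that share as a covariate 1 passed with a median of -1.04. Single omissions gave 15 to 42 genes, the lowest without untreated ketogenic replicate 2.

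E2F proteins bind short GC-rich words upstream of many S phase genes, and the promoters of the genes that moved together were searched for 4 such words, TTTGGCGC, TTTCCCGC, TTTCGCGC and TTTGCCGC, on both strands. Words may overlap. In RefSeq promoters of 300 bases (250 before the start, 50 after), 24 of 52 promoters of the S phase list held at least 1 word (46.2%), as did 21 of 40 promoters of its genes past the test (52.5%). The share was 4.6% of the 16678 promoters of all matched genes tested, 7.8% of 886 promoters of genes with a difference below 0 and 2.5% of 729 of those above 0. The 886 include the 40 promoters of S phase genes past the test, which supply 21 of their 69 promoters with a word. In the G2 and mitosis list the share was 10.3% of 39 promoters. Promoters of the S phase list also held more CG pairs (median 31, against 24 over all matched genes). A match is a description and no evidence of binding. The stretches below show the words in 5 of these genes (build GRCh38.p14, 5′ to 3′ on the strand of the gene, words in capitals). Capitals that start with GCG are a word on the opposite strand.
E2F1, chr20:33686386-33686435, minus strand: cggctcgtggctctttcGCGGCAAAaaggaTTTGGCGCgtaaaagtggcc
E2F2, chr1:23531238-23531305, minus strand: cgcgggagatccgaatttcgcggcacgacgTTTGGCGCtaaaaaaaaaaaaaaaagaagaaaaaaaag
PCNA, chr20:5126644-5126711, minus strand: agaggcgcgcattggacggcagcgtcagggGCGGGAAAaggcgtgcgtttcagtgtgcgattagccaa
MCM6, chr2:135876492-135876559, minus strand: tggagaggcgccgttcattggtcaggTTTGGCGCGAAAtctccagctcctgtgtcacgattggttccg
UHRF1, chr19:4909954-4910021, plus strand: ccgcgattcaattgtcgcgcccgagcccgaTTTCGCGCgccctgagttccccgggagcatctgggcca
In MCM6 the capitals hold 2 overlapping words on opposite strands, and E2F1 has 2 words that do not overlap. E2F2, an activator like E2F1, had a difference of -2.08 (SE 0.52).

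Levels below are in CPM on TMM-scaled library sizes, listed by replicate number, which does not pair libraries across groups. E2F1 (chromosome 20, 33675683 to 33686404), the activator of S phase genes whose promoter is shown above, stood at 10.7, 13.6, 10.8 and 10.5 in untreated high fat tumours and at 37.4, 46.6, 32.5 and 36.2 with inhibitors. On the ketogenic diet it stood at 46.6, 45.6, 32.2 and 22.1 untreated and at 23.7, 35.4, 29.8 and 41.3 with inhibitors. The untreated high fat libraries were the 4 lowest, and the other 3 groups overlapped. Its effect was 1.74 (SE 0.22) on the high fat diet and -0.17 (SE 0.21) on the ketogenic diet, a difference of -1.91 (SE 0.30, edgeR adjusted p = 0.00585). E2F1 passed in all 16 fits that left out a library.

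FEN1 (chromosome 11, 61792637 to 61797244), the flap endonuclease that trims Okazaki fragments, stood at 53.5, 51.6, 45.6 and 44.8 in untreated high fat tumours and at 164, 197, 180 and 183 with inhibitors. In ketogenic tumours it stood at 122, 121, 107 and 65.9 untreated and at 90.4, 141, 131 and 122 with inhibitors. The high fat groups were thus the lowest and the highest, with both ketogenic groups between them. The difference was -1.66 (SE 0.23, edgeR adjusted p = 0.00421). UHRF1, which keeps DNA methylation in place behind the fork, had 15.2, 18.1, 15.3 and 12.5 in untreated high fat tumours, 66.6, 76.6, 58.6 and 70.3 with inhibitors, 55.5, 59.7, 51.8 and 23.3 in untreated ketogenic tumours, and 27.7, 61.5, 52.8 and 45.5 with inhibitors. Its 4 untreated high fat values were again the lowest, and replicate 4 of the untreated ketogenic group was the lowest of the rest (difference -2.18, SE 0.36, edgeR adjusted p = 0.00761).

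The licensing and helicase genes were also lowest in untreated high fat tumours. CDC6, the loader of the MCM helicase, had 15.8, 15.3, 14.0 and 16.5 in untreated high fat tumours, 56.3, 73.8, 57.6 and 68.6 with inhibitors, 52.7, 51.9, 44.4 and 26.3 in untreated ketogenic tumours, and 27.0, 68.7, 55.2 and 55.8 with inhibitors (difference -1.82, SE 0.33, edgeR adjusted p = 0.00921). MCM5, a helicase subunit, had 19.4, 20.8, 18.0 and 14.5, then 55.1, 70.4, 63.5 and 70.5, then 64.7, 73.1, 52.2 and 28.2, and last 34.4, 67.3, 60.5 and 52.1 in the same order of groups (difference -1.87, SE 0.34, edgeR adjusted p = 0.00921). Both lay lowest in untreated high fat tumours without overlap, and both were low in replicate 4 of the untreated and replicate 1 of the treated ketogenic group. MCM6, another subunit, went from a mean of 23.5 ± 1.93 to 54.6 ± 8.11 CPM on the high fat diet and from 57.8 ± 16.9 to 54.7 ± 18.1 on the ketogenic diet (SD, n = 4 per group). Its difference was -1.30 (SE 0.32, edgeR adjusted p = 0.0253) and was lost in 4 of 16 omissions. PCNA, the sliding clamp of DNA polymerase, went from 70.0 to 181 CPM on the high fat diet and from 155 to 167 on the ketogenic diet (difference -1.27, SE 0.27, edgeR adjusted p = 0.0143).

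Among the cyclins, CCNE2, a cyclin E that drives the entry into S phase, had the most negative difference of the list, at -2.36 (SE 0.42, edgeR adjusted p = 0.00814). It stood at 4.01, 4.42, 2.87 and 2.31 CPM in untreated high fat tumours and at 18.6, 25.4, 21.1 and 24.3 with inhibitors. Ketogenic tumours had 14.3, 16.3, 12.5 and 6.43 untreated and 8.09, 21.7, 17.6 and 16 with inhibitors. All 12 libraries outside the untreated high fat group lay above that group. The related CCNE1 had a smaller difference of -0.62 (SE 0.17, edgeR adjusted p = 0.0359). The other members past the test included RRM2, the small subunit of ribonucleotide reductase, at -2.33, MCM10, a replication initiation factor, at -2.05, and the GINS helicase subunits GINS1 at -1.69, GINS2 at -1.76, GINS3 at -0.90 and GINS4 at -1.52. The 10 members that missed it had differences of -1.67 (E2F8, a repressor of the E2F family) to -0.55 (PRIM2, a primase subunit), and 9 of them had an unadjusted p under 0.05.

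**Figure D4:**
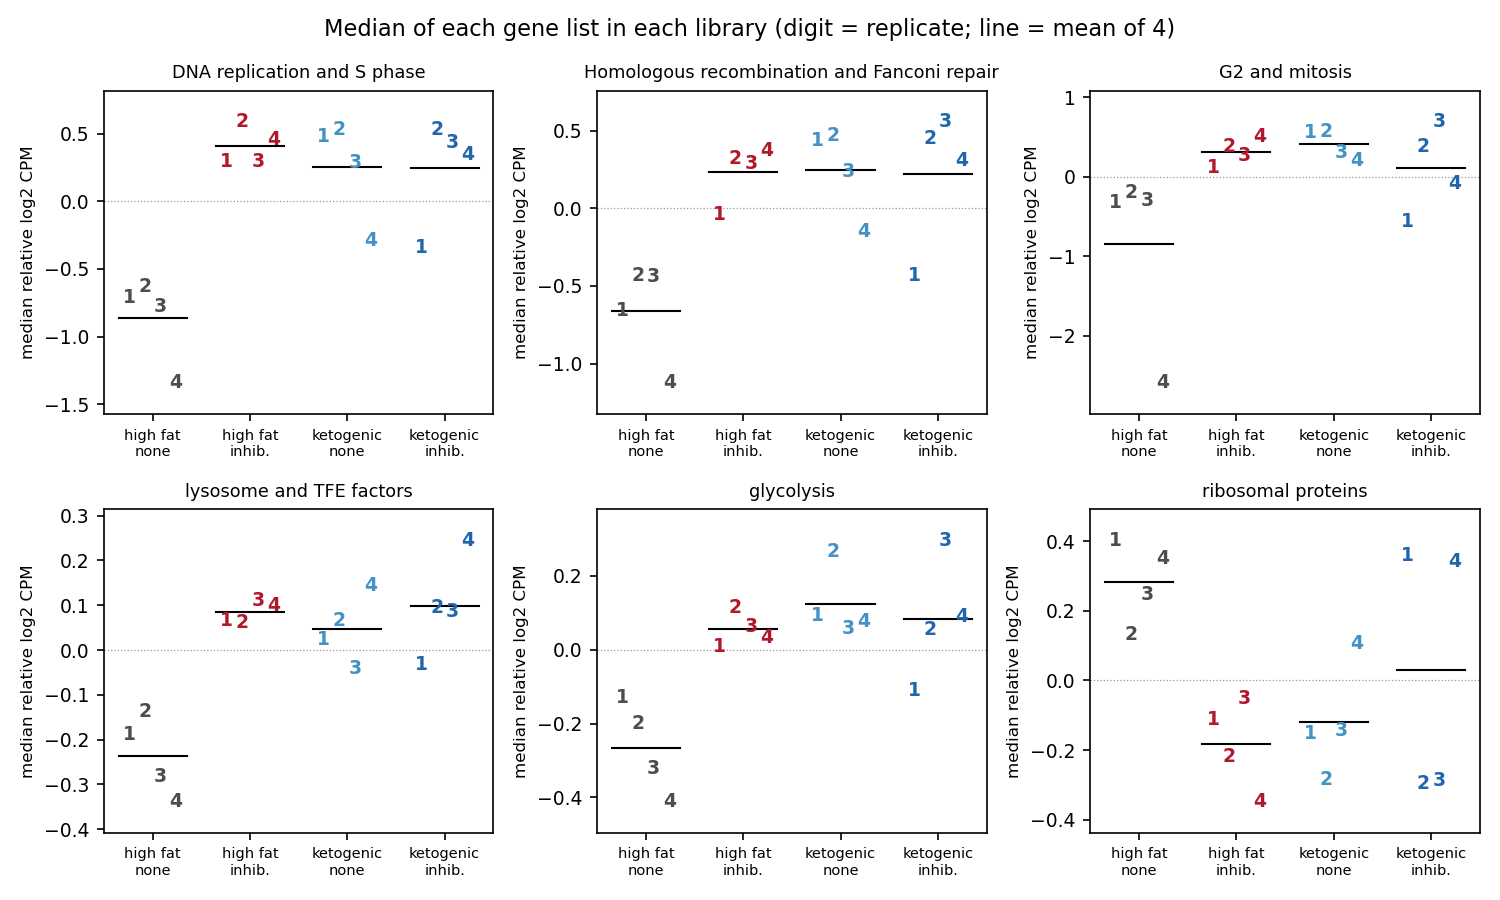
Median log2 CPM of 6 gene lists in each library, relative to each gene's mean over the 16 libraries (vertical axis, scale differs between panels), for the 4 groups; digits are replicate numbers and lines are means of 4. Untreated high fat libraries lie lowest for the S phase list (-1.34 to -0.63), and their replicate 4 stands at -2.59 in the mitotic list.

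Genes of neighbouring phases were counted in the same way, and their shares were not tested against that of the S phase list. Among all genes tested 9.02% passed. Of 25 genes of homologous recombination and Fanconi repair, 8 passed, all below 0 and all lost (32%, median difference -0.90). FANCA of the Fanconi core complex stood at 14.6, 12.8, 11.9 and 6.98 CPM in untreated high fat tumours, 26.7, 31.1, 28.3 and 32.5 with inhibitors, 28.5, 29.8, 22.2 and 15.7 in untreated ketogenic tumours and 17.3, 28.6, 33.1 and 25.0 with inhibitors. The untreated high fat libraries were the 4 lowest, with a difference of -1.25 (SE 0.33, edgeR adjusted p = 0.0311). The count ran from 0 without untreated high fat replicate 3 to 10 over single omissions. Of 18 genes of the G1 cyclins, kinases and inhibitors, 5 passed below 0 and 1 above 0 (33.3% in all). CDC25A, the phosphatase that activates CDK2, went from 10.8, 11, 9.4 and 10.5 to 24.7, 36.0, 29.5 and 34.7 on the high fat diet, and stood at 28.6, 27.2, 21.4 and 12.5 untreated and 14.3, 29.5, 27.0 and 26.6 treated on the ketogenic diet (difference -1.47, SE 0.33, edgeR adjusted p = 0.0194). Only the untreated high fat group lay apart from the rest. CDKN2D, an inhibitor of CDK4 and CDK6, had a difference of -1.14 (SE 0.24, edgeR adjusted p = 0.0143). The exception above 0 was CDKN2A, the p16 locus, with an effect of -1.89 on the high fat diet and of 0.00 on the ketogenic diet.

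Mitotic genes had a similar median and more spread. Of 38 genes of G2 and mitosis only MAD2L1, a spindle checkpoint protein, passed (2.63%, against 9.02% of all genes). The list had a median of -1.12, and 19 members had an unadjusted p under 0.05, against 28.5% of all genes. MAD2L1 stood at 30, 30.5, 25.6 and 17.3 in untreated high fat tumours, 42.9, 64.3, 68.7 and 68.8 with inhibitors, 59.9, 59.8, 59.5 and 41.1 in untreated ketogenic tumours, and 33.7, 61.8, 65.7 and 53.5 with inhibitors (difference -1.28, SE 0.31, edgeR adjusted p = 0.0236). Replicate 4 of the untreated high fat group stood far below its group in this list. There CDK1, the mitotic kinase, was at 15.1 CPM (others 48.7 to 56.8), PLK1 at 7.07 (others 57.4 to 65.4) and TOP2A, the decatenating topoisomerase, at 34.3 (others 261 to 297). CDK1 missed the test with all libraries (difference -1.45, SE 0.45, edgeR adjusted p = 0.0566). Without that replicate 11 of the 38 passed, and the median difference was -0.80.

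Lost genes outside the cell cycle included several with small p. KNOP1 (chromosome 16, 19701934 to 19718235), a nucleolar protein, stood at 74.4, 65.4, 72.4 and 67.0 in untreated high fat tumours, at 31.0, 33.5, 29.5 and 31.2 with inhibitors, at 40.6, 48.9, 47.0 and 52.7 in untreated ketogenic tumours and at 45.9, 39.4, 44.7 and 54.3 with inhibitors. The high fat groups were the extremes on both sides, and the ketogenic groups overlapped between them (effects -1.16 and -0.04, difference 1.12, SE 0.14, edgeR adjusted p = 0.00421). PCOLCE2, an enhancer of procollagen processing, had 22.2, 17.6, 19.4 and 20.7 in untreated high fat tumours, 6.93, 7.22, 6.69 and 8.33 with inhibitors, 13.0, 13.4, 14.0 and 16.1 in untreated ketogenic tumours and 13.0, 10.5, 10.5 and 12.8 with inhibitors (difference 1.18, SE 0.17, edgeR adjusted p = 0.00421). SPIN3, of the spindlin histone readers, fell by 0.90 on the high fat diet and had 0.16 on the ketogenic diet (difference 1.06, SE 0.15, edgeR adjusted p = 0.00421); its near-identical relatives may share reads with it. All of these kept the call in 16 of 16 omissions.

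Several lost genes had differences over 3 log2 units, and KDR is shown beside them. ESM1, the secreted proteoglycan endocan, stood at 0.253, 0.65, 0.287 and 1.87 CPM in untreated high fat tumours and at 8.08, 13.1, 17.8 and 9.47 with inhibitors, but at 0.897, 1.65, 1.44 and 1.87 untreated and 1.15, 1.31, 1.38 and 4.57 treated on the ketogenic diet. Here the inhibitor-treated high fat group was the one that stood apart, above all other libraries (difference -3.44, SE 0.81, edgeR adjusted p = 0.0231). KDR, the VEGF receptor that marks endothelium and is also found in melanoma, had the same form, with 15.4, 20.8, 16.6 and 34.4 untreated and 75.9, 70.3, 72.9 and 81.3 treated on the high fat diet, and 25.0, 36.3, 30.2 and 32.3 untreated and 29.6, 46.5, 46.6 and 26.3 treated on the ketogenic diet (difference -1.52, SE 0.32, edgeR adjusted p = 0.0164). DKK1, a secreted WNT antagonist, rose by 3.06 (SE 0.59) on the high fat diet and had -0.11 (SE 0.54) on the ketogenic diet, where inhibitor-treated values spread from 2.57 to 26.8 CPM; the call ended in 7 of 16 omissions. LINC00663, a long non-coding RNA, fell by 3.71 (SE 0.50) on the high fat diet and had -0.30 (SE 0.45) on the ketogenic diet (difference 3.41, SE 0.66, edgeR adjusted p = 0.0103).

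Blunted effects kept their direction at a smaller size. CARD6 (chromosome 5, 40841184 to 40860175), a caspase recruitment domain protein, stood at 9.86, 11, 9.62 and 11.3 in untreated and 31.7, 28.3, 32.6 and 30.5 CPM in treated high fat tumours. On the ketogenic diet it stood at 13.1, 14.4, 12.7 and 12.9 untreated and at 18.5, 20, 20.7 and 14.7 treated. All 4 groups were separate: the gene rose 2.95-fold on the high fat diet and 1.39-fold on the ketogenic diet, a difference of -1.08 (SE 0.15, edgeR adjusted p = 0.00421). STAC (chromosome 3, 36380344 to 36548007), a calcium channel adaptor, fell on both diets. It went from 6.35, 6.78, 6.34 and 11.2 to 0.782, 0.727, 0.479 and 0.797 CPM on the high fat diet and from 2.66, 3.64, 3.21 and 3.95 to 1.49, 0.861, 1.67 and 1.01 on the ketogenic diet. The high fat groups were again the highest and the lowest (effects -3.46 and -1.42, difference 2.04, SE 0.36, edgeR adjusted p = 0.00814).

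The other blunted genes that passed on both diets were ADAMTSL4, DNAH9, EOGT, EVI2A, RAB22A, SRSF6 and WSCD1. WSCD1, a membrane sulfotransferase-like protein, fell from 60.1 ± 9.41 to 9.95 ± 0.84 CPM on the high fat diet and from 39.4 ± 9.85 to 16 ± 4.95 on the ketogenic diet (SD, n = 4; difference 1.30, SE 0.27, edgeR adjusted p = 0.0143). SRSF6, a splicing factor, rose from 91.7, 95.4, 97.6 and 98.3 to 199, 233, 193 and 217 on the high fat diet and from 94.4, 99.0, 109 and 71.1 to 132, 164, 120 and 141 on the ketogenic diet. Here the untreated groups overlapped and the gap lay between the treated groups (difference -0.56, SE 0.17, edgeR adjusted p = 0.0484, kept in 3 of 16 omissions). RAB22A, an endosomal GTPase, rose by 0.82 and by 0.40 (difference -0.42, SE 0.12, edgeR adjusted p = 0.0376), and lost the call in 11 of 16 omissions. EVI2A rose by 2.41 and by 1.21 (difference -1.20, SE 0.36, edgeR adjusted p = 0.0463), and was kept in 3 of 16 omissions.

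The lysosome, whose acidity is set by the vacuolar proton pump, held both lost and blunted genes. Of 25 lysosomal genes, 7 passed, all below 0 (28%, against 9.02% of all genes, median difference -0.28), 5 lost and 2 blunted. ATP6V0D1, a membrane-sector subunit of the pump, stood at 24.4, 28.3, 25.6 and 20.6 in untreated high fat tumours, 54.9, 61.0, 62.0 and 64.2 with inhibitors, 45.5, 46.6, 43.7 and 36.5 in untreated ketogenic tumours and 50, 54.7, 56.3 and 65.2 with inhibitors. The untreated high fat group was lowest without overlap (effects 1.29 and 0.39, difference -0.90, SE 0.16, edgeR adjusted p = 0.0079). ATP6V1H, a regulatory subunit, had a difference of -0.71 (SE 0.11, edgeR adjusted p = 0.00636). The membrane protein LAMP1 at -0.67 and the cathepsins CTSA at -0.74, CTSB at -0.76 and CTSZ at -0.75 also passed. The count ran from 3 without untreated ketogenic replicate 2 to 11 over single omissions. MFSD1, a lysosomal transporter outside the list, rose by 1.29 on the high fat diet and had 0.34 on the ketogenic diet, which missed the test there (difference -0.95, SE 0.14, edgeR adjusted p = 0.00426).

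**Figure D5:**
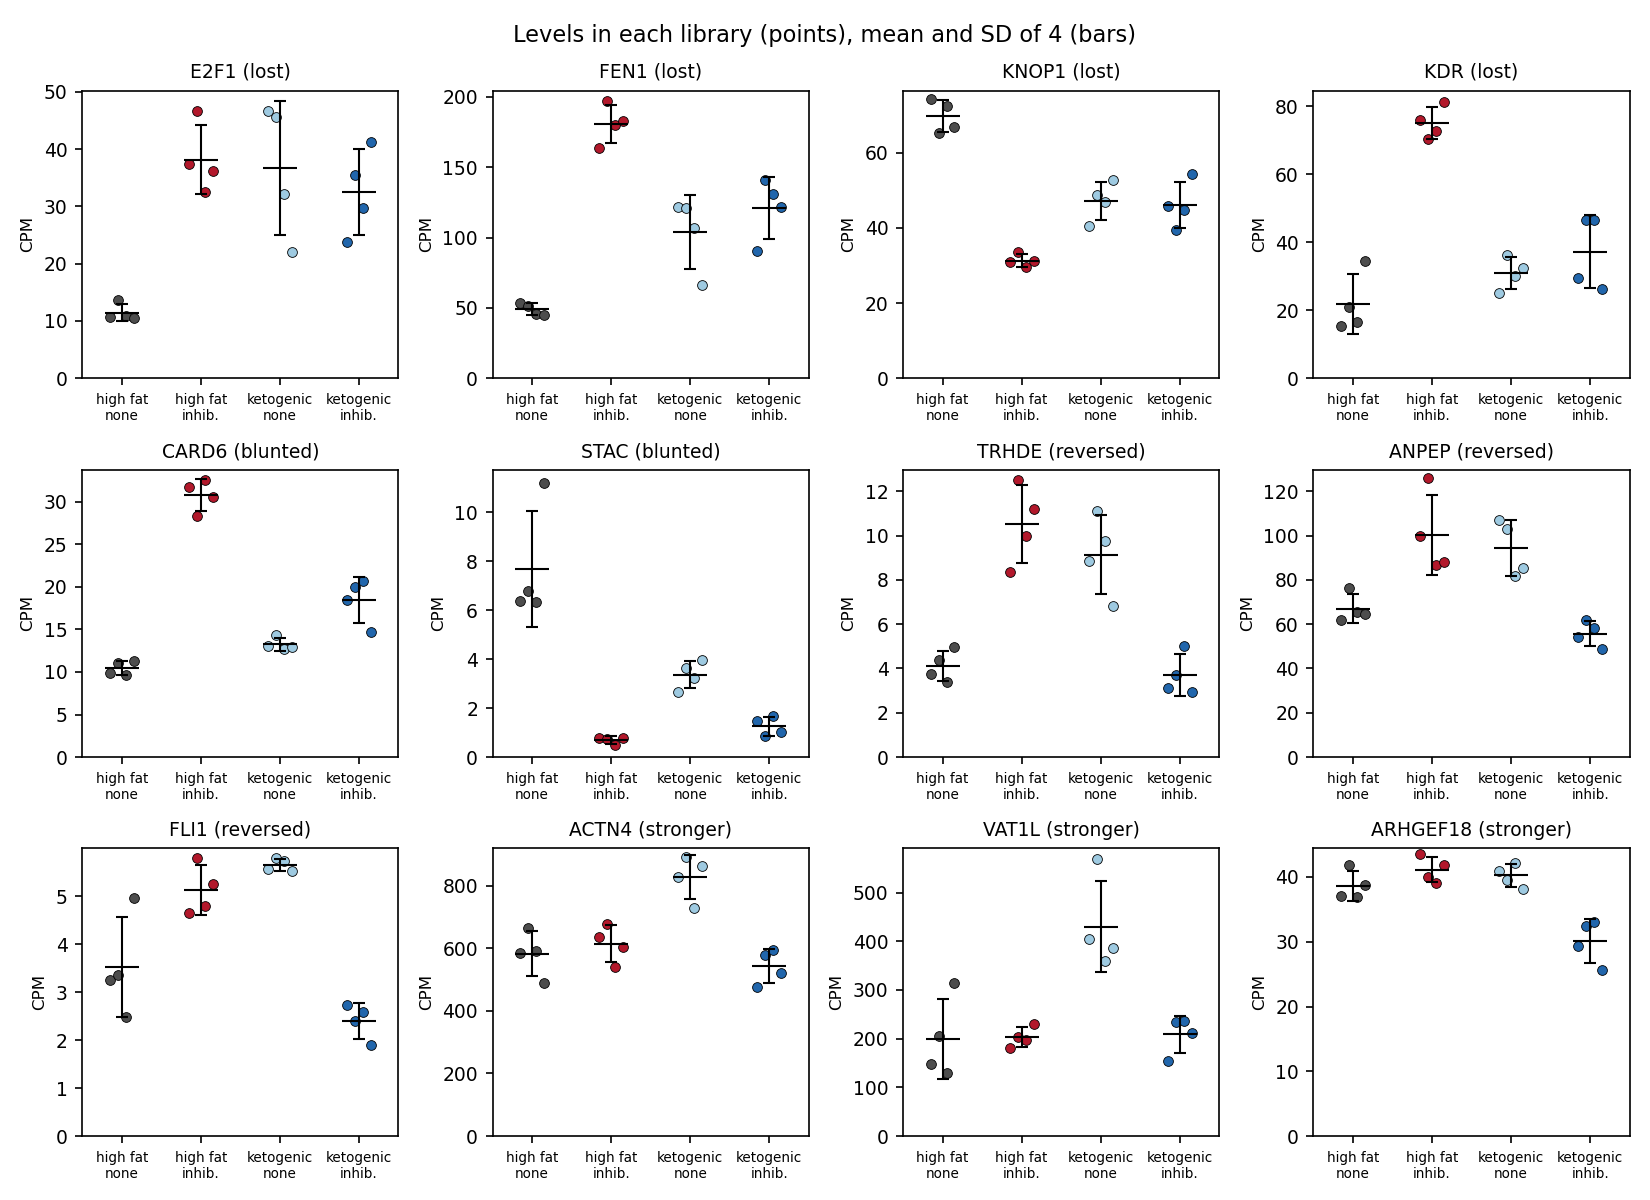
CPM of 12 genes (vertical axes, from 0) in each library of the 4 groups; points are libraries, long bars the mean and error bars the SD of 4. E2F1 lies lowest in untreated high fat tumours, KDR is high only in inhibitor-treated high fat tumours, and TRHDE and ANPEP are high in 2 groups that differ in both diet and treatment.

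Reversed effects that passed on both diets in opposite directions were few. They were ANPEP, CREB5, FLI1, IL1R1, NPIPA2, TRHDE, TRPA1, ZNF276 and ZNF655. TRHDE (chromosome 12, 72087266 to 72670757), an ectoenzyme that cleaves thyrotropin-releasing hormone, had the smallest p of all genes. It stood at 3.76, 4.37, 3.4 and 4.95 CPM in untreated high fat tumours and at 8.38, 12.5, 9.98 and 11.2 with inhibitors. On the ketogenic diet it stood at 8.86, 11.1, 9.76 and 6.84 untreated and at 3.11, 3.7, 5.03 and 2.95 with inhibitors. The 2 untreated groups did not overlap, nor did the 2 treated groups, and inhibitors went with 2.55-fold more on the high fat diet and 2.48-fold less on the ketogenic diet. The effects were 1.35 (SE 0.20) and -1.31 (SE 0.20), and the difference -2.66 (SE 0.28, edgeR adjusted p = 0.000593). It passed in all 16 omissions and in the fit with a term for ribosomal RNA (edgeR adjusted p = 0.0115).

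ANPEP (chromosome 15, 89784889 to 89815401), the membrane aminopeptidase CD13, had 61.7, 76.5, 65.4 and 64.6 in untreated high fat tumours, 99.7, 126, 86.9 and 88.1 with inhibitors, 107, 103, 81.9 and 85.5 in untreated ketogenic tumours and 54.2, 61.7, 58.3 and 48.9 with inhibitors. The groups separated within each diet, and treated high fat and untreated ketogenic tumours shared a range (effects 0.58 and -0.76, difference -1.34, SE 0.18, edgeR adjusted p = 0.00421). FLI1, an ETS transcription factor, had 3.26, 3.36, 2.49 and 4.97 in untreated high fat tumours, 4.66, 5.8, 4.8 and 5.26 with inhibitors, 5.57, 5.8, 5.73 and 5.53 in untreated ketogenic tumours, and 2.73, 2.39, 2.59 and 1.89 with inhibitors. The fall on the ketogenic diet (-1.24, SE 0.19) was clear of overlap, while on the high fat diet replicate 4 of the untreated group lay inside the treated range (0.54, SE 0.19). The difference was -1.78 (SE 0.27, edgeR adjusted p = 0.00542).

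IL1R1, the signalling receptor of interleukin-1, rose by 0.66 (SE 0.20) on the high fat diet and fell by 1.02 (SE 0.20) on the ketogenic diet (difference -1.68, SE 0.28, edgeR adjusted p = 0.00637), at 1.55 to 4.59 CPM. CREB5, a transcription factor of the CREB family, ran the other way, with 11.3, 12.1, 12.4 and 17.8 untreated and 9.62, 9.57, 9.0 and 9.34 treated on the high fat diet, and 8.88, 4.79, 10.1 and 7.95 untreated and 13.7, 14.6, 13.4 and 13.9 treated on the ketogenic diet. Neither pair of groups overlapped (effects -0.51 and 0.81, difference 1.33, SE 0.26, edgeR adjusted p = 0.0106). The zinc finger genes ZNF276 (difference 0.81, SE 0.16) and ZNF655 (difference 0.60, SE 0.12) and NPIPA2 (difference 1.24, SE 0.21) had the same direction as CREB5; NPIPA2 has near-identical copies among which reads may be divided. TRPA1, an irritant-sensing cation channel, had the largest of these differences, -6.48 (SE 1.16), but at 0.0239 to 0.227 CPM in untreated high fat tumours and with 8.33 CPM in 1 untreated ketogenic library against 0.51 to 2.5 in the others.

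Most reversed genes had 1 clear side. EHD2, an ATPase at the neck of caveolae, stood at 41.1, 47.8, 40 and 52.0 in untreated high fat tumours, 70.0, 66.2, 69.0 and 70.7 with inhibitors, 75.1, 78.2, 67.2 and 61.5 in untreated ketogenic tumours and 48.0, 58.0, 57.2 and 49.5 with inhibitors. The groups separated within each diet, although the ketogenic side missed the test (effects 0.61 and -0.41, difference -1.02, SE 0.15, edgeR adjusted p = 0.00421, ketogenic adjusted p = 0.0539). OSBPL7, a sterol-binding protein, fell by 1.19 (SE 0.17) on the high fat diet and had 0.38 (SE 0.16) on the ketogenic diet (difference 1.56, SE 0.23, edgeR adjusted p = 0.00484). IL37, a cytokine of the interleukin-1 family, had its clear side on the ketogenic diet, from 9.57, 18.8, 14.5 and 17.4 untreated to 6.61, 2.75, 1.71 and 3.91 treated, against 5.12, 7.51, 2.68 and 4.6 and then 8.78, 7.2, 9.63 and 9.6 on the high fat diet (difference -2.82, SE 0.49, edgeR adjusted p = 0.00808). The high fat change of IL37 missed the test (0.82, SE 0.35). FXYD3, a regulator of the sodium pump, fell by 1.70 (SE 0.42) on the high fat diet and had 1.05 (SE 0.41) on the ketogenic diet (difference 2.75, SE 0.58, edgeR adjusted p = 0.0183).

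Matrix and adhesion genes of the reversed class were drawn from several lists. THBS1, the matrix glycoprotein thrombospondin-1, stood at 92.1, 98.1, 112 and 78.2 in untreated high fat tumours, 143, 199, 159 and 168 with inhibitors, 162, 113, 111 and 82.8 in untreated ketogenic tumours and 58.8, 113, 81.9 and 78.2 with inhibitors. The treated high fat group was above the untreated high fat group without overlap, and the ketogenic groups overlapped (effects 0.81 and -0.50, difference -1.31, SE 0.28, edgeR adjusted p = 0.0164). CTGF, a matricellular target of YAP and TGF-beta, had 4.35, 5.28, 5.36 and 6.49, then 12.9, 19.2, 12.2 and 12.8 on the high fat diet, and 22.7, 14.0, 12.1 and 16.6, then 7.37, 20, 9.75 and 7.71 on the ketogenic diet, lowest in untreated high fat tumours (difference -1.96, SE 0.40, edgeR adjusted p = 0.0143). WNT5A, a non-canonical WNT ligand of invasive melanoma, had a difference of -0.92 (SE 0.18, edgeR adjusted p = 0.0103) and ITGB5, an integrin subunit, of -0.89 (SE 0.20, edgeR adjusted p = 0.0175). COL7A1, the anchoring fibril collagen, ran the other way (difference 1.25, SE 0.31, edgeR adjusted p = 0.024).

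Counts for these lists are read against 9.02% of all genes. Past the test were 4 of 21 genes of the dedifferentiated melanoma state (19%, 3 below 0), 4 of 19 matrix proteases and plasminogen genes (21.1%, all below 0), 3 of 30 collagens and matrix genes (10%, 1 below 0), 1 of 16 integrins (6.25%), 1 of 22 YAP and TGF-beta targets (4.55%) and 3 of 24 WNT genes (12.5%, 2 below 0). The protease and plasminogen list also holds inhibitors and receptors. Its genes past the test were MMP14, the protease inhibitors TIMP3 (-1.19) and SERPINE2 (-0.78) and the receptor F2RL1 (-1.26). MMP14, a membrane-bound collagenase, rose from 119 ± 4.3 to 186 ± 15.2 CPM on the high fat diet and stood at 130 ± 4.33 and 145 ± 10.3 on the ketogenic diet (SD, n = 4; difference -0.49, SE 0.11, edgeR adjusted p = 0.0202). Without untreated high fat replicate 4, the dedifferentiated state and the protease and plasminogen list each had 9 genes past the test. The protease and plasminogen list had 0 without untreated ketogenic replicate 1, and the dedifferentiated state had 2 without untreated high fat replicate 3.

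Ribosomal protein genes moved the other way from S phase genes. Of 32 tested, 5 passed, all above 0 and all reversed (15.6%, against 9.02% of all genes, median difference 0.62). An unadjusted p under 0.05 was found for 30 of them, against 28.5% of all genes. The list had a median of -0.46 on the high fat diet, where 23 fell, and of 0.18 on the ketogenic diet, where 0 passed. RPL5 stood at 606, 549, 607 and 619 CPM in untreated high fat tumours, 460, 462, 467 and 418 with inhibitors, 460, 454, 469 and 514 in untreated ketogenic tumours, and 619, 482, 453 and 638 with inhibitors. The inhibitor-treated ketogenic group split, with replicates 1 and 4 at or above untreated high fat levels and replicates 2 and 3 near the other groups (difference 0.61, SE 0.16, edgeR adjusted p = 0.0296). The count ran from 0 without untreated high fat replicate 1 to 23 over single omissions and was 0 with library size alone as scaling. Pseudogene copies may share reads with these genes. Of 25 ribosome biogenesis genes 0 passed in edgeR (3 at an unadjusted p under 0.05, 1 in DESeq2).

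Genes of fuel use were examined as lists. Of 23 glycolysis genes 5 passed, all below 0 (21.7%, against 9.02% of all genes, median -0.44). PKM, the pyruvate kinase, stood at 709, 738, 635 and 534 CPM in untreated high fat tumours, 1470, 1720, 1820 and 1910 with inhibitors, 1380, 1760, 1270 and 1140 in untreated ketogenic tumours and 1030, 1610, 1790 and 1960 with inhibitors. Untreated high fat tumours were lowest without overlap (difference -1.20, SE 0.26, edgeR adjusted p = 0.0154). SLC2A1, the glucose transporter GLUT1, rose from 40.1, 44.1, 37.4 and 40.5 to 80.8, 82.9, 77.2 and 79.0 on the high fat diet, and went from 46.0, 55.1, 54.5 and 45.3 to 52.8, 58.4, 74.5 and 62.3 on the ketogenic diet, where the groups overlapped (difference -0.68, SE 0.15, edgeR adjusted p = 0.0163). PGAM1, phosphoglycerate mutase, had -1.02, LDHA, lactate dehydrogenase, -0.86 and PFKP, the platelet phosphofructokinase, -0.53. Single omissions gave 4 to 9 genes of the list.

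Fat and ketone metabolism passed near or under the background share. Of 10 ketone body genes 1 passed, the transporter SLC16A6, at 8.93, 11, 8.73 and 20.2 CPM in untreated high fat tumours, 63.3, 52.2, 64.8 and 67.5 with inhibitors, 14.7, 31.9, 13.9 and 20.1 in untreated ketogenic tumours and 47.8, 27.4, 21.4 and 44.1 with inhibitors. The treated high fat group alone was apart (effects 2.34 and 0.80, difference -1.54, SE 0.45, edgeR adjusted p = 0.0463, kept in 3 of 16 omissions). Of 26 fatty acid oxidation genes 3 passed: CPT1A, the liver-type gate of mitochondrial entry (-0.60, SE 0.15), CPT1B, its muscle-type relative (0.94, SE 0.26), and the fatty acid transporter CD36 (-2.61, SE 0.59). CD36 was low, with group means of at most 1.17 CPM. The 2 CPT1 genes thus had opposite signs. In fatty acid synthesis 0 of 16 passed in edgeR (2 at an unadjusted p under 0.05, 0 in DESeq2), in cholesterol synthesis 1 of 23, in the citric acid cycle 2 of 21, DLD (-0.55) and MDH1 (-0.49), and in oxidative phosphorylation 1 of 28, SDHC (-0.41).

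Stress lists had shares of 8.33 to 23.5%, against 9.02% of all genes. Heat shock chaperones had 4 of 17 below 0 (23.5%, median -0.70), and 0 without untreated ketogenic replicate 2. HSP90AA1, the inducible HSP90, went from 756 ± 171 to 1650 ± 262 CPM on the high fat diet and from 1680 ± 382 to 1580 ± 399 on the ketogenic diet (SD, n = 4; difference -1.22, SE 0.30, edgeR adjusted p = 0.0238). HSPB1 (-0.82), HSPE1 (-0.96) and CRYAB (-0.93) were the others. The unfolded protein response had 3 of 20 below 0, with PDIA4 at -0.73, CRELD2 at -0.78 and PDIA6 at -0.54, and 0 to 7 over single omissions. NRF2 targets had 3 of 21 below 0, among them AKR1B1 (-0.87), which was kept in all 16 omissions, and the count ran from 2 to 6 over them. The p53 targets had 3 of 20 above 0, ZMAT3 (0.94), CCNG1 (0.81) and BBC3 (1.04). CCNG1 and BBC3 each lost the call in 12 of 16 omissions, and the list had 0 without untreated high fat replicate 3. The ATF4 list had 2 of 24 above 0: ALDH1L2, a mitochondrial folate enzyme (1.53, SE 0.35, edgeR adjusted p = 0.0203), and NUPR1, a stress-induced nuclear protein at up to 2.19 CPM. Its median difference was 0.74, and 0.33 without untreated high fat replicate 4.

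The targets of the inhibitors and their usual readouts did not pass. DUSP6, the ERK phosphatase, stood at 218, 249, 212 and 485 CPM in untreated high fat tumours, 510, 457, 448 and 449 with inhibitors, 291, 306, 345 and 287 in untreated ketogenic tumours, and 360, 350, 344 and 535 with inhibitors. Replicate 4 was high in the untreated high fat and in the treated ketogenic group (difference -0.31, SE 0.31, edgeR adjusted p = 0.535). Without untreated high fat replicate 4 the gene passed with a difference of -0.67. SPRY4 had a difference of 0.46 (SE 0.25, edgeR adjusted p = 0.24) and ETV4 of 0.27 (SE 0.17, edgeR adjusted p = 0.319). For the kinases the differences were 0.22 (SE 0.16) for BRAF, -0.28 (SE 0.12) for MAP2K1, 0.01 (SE 0.16) for MAP2K2 and -0.22 (SE 0.16) for MAPK3, with edgeR adjusted p of 0.149 or more.

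List counts in the next sentences are read against 9.02% of all genes. Of 14 MAPK core genes 1 passed (7.14%), ARAF, a relative of BRAF, at 44.9, 46.1, 44.8 and 44.5 CPM in untreated high fat tumours, 56.7, 56.9, 57.3 and 58.5 with inhibitors, 52.6, 59.0, 52.4 and 56.2 in untreated ketogenic tumours and 46.5, 49.4, 55.1 and 54.8 with inhibitors. Untreated high fat tumours were lowest (difference -0.45, SE 0.11, edgeR adjusted p = 0.0223). Of 25 MAPK output genes 1 passed (4%), the receptor kinase EPHA4, with effects of 0.93 and -0.54 (difference -1.47, SE 0.34, edgeR adjusted p = 0.0203). Receptor kinases and ligands of drug resistance had 1 of 22 (4.55%), KDR, given above. The melanocyte list had 2 of 17 (11.8%), the tautomerase DCT above 0 (4.05, at low levels) and BCL2A1, an anti-apoptotic MITF target (-0.998). BCL2A1 had 14.8, 13.3, 11.7 and 20.5, then 33.9, 36.1, 56.3 and 41.7 on the high fat diet, and 19.8, 18.9, 23.2 and 20.4, then 30.8, 25.4, 25.2 and 33.3 on the ketogenic diet, with the treated high fat group above the rest (SE 0.25, edgeR adjusted p = 0.0254). In the BCL2 family it and BBC3, a pro-apoptotic member, were the 2 of 16 past the test (12.5%).

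In 4 more lists 0 genes passed in edgeR: 22 AP-1 and immediate early genes (4 at an unadjusted p under 0.05, 2 in DESeq2), 22 inflammatory genes (2 and 0), 29 interferon-stimulated genes (12 and 4) and 17 HLA class I genes (3 and 3). Of 21 hypoxia genes outside glycolysis 0 passed (8 and 4). Among all genes tested 9.02% passed in edgeR and 28.5% had an unadjusted p under 0.05. A missed threshold does not show that the inhibitor effects were alike.

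Effects that were stronger on the ketogenic diet were rare, and 10 of the 21 reached 5 CPM in a group. ACTN4 (chromosome 19, 38647649 to 38731583), which crosslinks actin, stood at 585, 664, 591 and 490 CPM in untreated and 636, 679, 539 and 604 in treated high fat tumours. On the ketogenic diet it fell from 827, 891, 729 and 862 to 475, 579, 596 and 522. Untreated ketogenic tumours were above all other libraries (effects 0.08 and -0.61, difference -0.68, SE 0.16, edgeR adjusted p = 0.0223, kept in 14 of 16 omissions). ARHGEF18, a guanine nucleotide exchange factor, had 37.0, 41.9, 36.9 and 38.8 untreated and 43.5, 40, 39.1 and 41.9 treated on the high fat diet, and 40.9, 39.6, 42.2 and 38.2 untreated and 29.4, 32.4, 33.1 and 25.7 treated on the ketogenic diet. Here the treated ketogenic group was below all others (difference -0.51, SE 0.12, edgeR adjusted p = 0.0248).

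VAT1L stood at 148, 206, 130 and 314 in untreated and 181, 204, 198 and 231 in treated high fat tumours, and fell from 405, 568, 360 and 387 to 154, 235, 236 and 211 on the ketogenic diet (difference -1.07, SE 0.32, edgeR adjusted p = 0.0496, kept in 3 of 16 omissions). CD96, an adhesion receptor best known from T and NK cells, fell from 65.2, 83.7, 66.3 and 61.0 to 31.0, 24.9, 29 and 26.6 on the ketogenic diet, while high fat tumours had 26.8, 40, 29.2 and 81.2 untreated and 41.3, 50.3, 39.2 and 43.2 treated. Both genes had a high value in replicate 4 of the untreated high fat group (CD96 difference -1.28, SE 0.36, edgeR adjusted p = 0.0411). CYP24A1, the vitamin D hydroxylase, had 1.59, 12.7, 2.14 and 3.76 in untreated ketogenic tumours and 0.229, 0.293, 1.52 and 0.139 with inhibitors, so its size rests much on replicate 2 (difference -3.83, SE 1.05, edgeR adjusted p = 0.0366, -2.80 as the value nearest 0 over single omissions). PSMA3-AS1, a non-coding RNA antisense to a proteasome gene, rose from 17.0, 15.2, 17.6 and 18.9 to 30, 21.4, 20.1 and 25.0, above all other libraries (difference 0.58, SE 0.16, edgeR adjusted p = 0.0366). The strand setting of the counting is not given, so its reads and those of its partner cannot be told apart. None of the 21 kept the call in all 16 omissions.

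Markers of other cells were measured beside these genes. Their counts are read against 9.02% of all genes, and each list had only 4 to 14 members tested. Of 17 leukocyte markers 8 were tested and 1 passed, CORO1A, an actin regulator, at 0.297 to 1.3 CPM in untreated high fat tumours and 2.55 to 7.73 elsewhere (difference -3.06, SE 0.49, edgeR adjusted p = 0.00636). The summed level of the list was 7.47 to 17.0 CPM in untreated high fat libraries, 17.3 to 26.4 with inhibitors, 16.9 to 26.9 in untreated ketogenic libraries and 18.6 to 22.8 with inhibitors, with MS4A1 at 0 in every library. In endothelium 2 of 9 tested passed, KDR and ROBO4. The 14 markers summed to 34.6 to 66.3, 92.8 to 109, 47.6 to 68.2 and 49.9 to 64.2 CPM in the same order of groups, mostly from KDR, with the defining markers CDH5, EMCN, ERG and PLVAP at a mean under 0.1. Of the macrophage markers LYZ passed (1 of 6, 16.7%, below 0) and of fibroblast markers ACTA2 (1 of 14, 7.14%, above 0). Lung epithelium had AGER, LAMP3 and KRT19 (3 of 8, 37.5%, all above 0). Erythroid and plasma proteins had SERPINA1 (1 of 6, 16.7%, below 0). Adipocyte markers had PLIN1 above 0 and LPL below 0 (2 of 4, 50%). LYZ and AGER were low, with group means of at most 3.73 and 2.39 CPM. Summed macrophage markers ran from 34.4 to 75.4 CPM, lung epithelium from 110 to 207 with SFTPC at up to 0.0433, and adipocyte markers from 79.2 to 240, mostly LPL, with FABP4 and RETN at 0. Fibroblast markers ran from 1020 to 3610, mostly CSPG4, which melanoma cells also make, and erythroid and plasma proteins from 14.1 to 99.1. Host cells in these lungs are mouse cells, whereas the counts are of human gene symbols, and how mouse reads were treated is not given. These levels therefore cannot gauge the content of host cells. The part of such cells in the differences was not tested. In bulk RNA, fewer cells of a type and less RNA per cell cannot be told apart.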

How the data were processed

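Poly-A RNA was counted in 16 libraries, 4 in each of 4 groups. The values the authors deposited are expected counts (estimated counts) of 26475 gene symbols without depth scaling. Per the submitters' processing notes the tools were Bowtie2 2.1.0 and RSEM 1.2.15 and the build was hg38. How mouse reads were treated, the annotation and the strand setting were not given in the sources used here. Counts (13% not whole) were rounded, filtered with filterByExpr, TMM-scaled, then modelled with edgeR 4.0.16 under R 4.3.3 (robust quasi-likelihood, group means, 12 residual degrees of freedom). The contrast was the inhibitor effect on the ketogenic diet minus that on the high fat diet, two-sided, with Benjamini-Hochberg adjustment at 0.05 over 16012 genes. SE is the absolute log2 fold change divided by the root of F. Libraries of a group differed by at least 35.3 in chi-square per degree of freedom, so none was a copy of another. This value cannot tell whether 2 libraries came from 1 mouse or 1 RNA sample. The procedure was tested on simulated counts.

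Members, the 35 gene lists and the 7 marker lists were chosen with earlier results of these data known. Genes were named by a rule: at 5 CPM or more in a group, the 4 smallest p and the 3 largest differences per class, the 2 smallest p per list, and the inhibitors' targets. Other genes named, among them those past the test on both diets, and the E2F words were chosen after their values were seen. Coordinates are GENCODE 29 on hg38, 1-based; promoters are from RefSeq, GRCh38.p14, which matched 11463 of the genes tested. Alternatives used DESeq2 1.42.0, limma 3.58.1, other scalings and filters, and fewer libraries. Results for some genes are not reported here.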

Additional observations from a re-analysis of the deposited data

Results flagged for a closer look

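The inhibitor effect differed between the diets by a test of the difference itself in 1444 genes, as reported above. Single libraries far from their group were sought in 124 groups of 4 values (27 genes named by class, the ribosomal RNA share, the total count and the medians of the S phase and mitosis lists). In 6 of them the gap to the nearest library, as a share of the group's range, exceeded Dixon's 95% critical value, and chance gives about 1 in 20. For genes the share was taken on log2 CPM, whereas the levels are printed as CPM. COL15A1, a basement membrane collagen, stood at 93.2 CPM in untreated high fat replicate 4, against 25.7 to 30.2 in the others (share 0.875). In the same library the median of the G2 and mitosis list was -2.59, against -0.32 to -0.19 (share 0.946). ESM1 stood at 4.57 CPM in inhibitor-treated ketogenic replicate 4, against 1.15 to 1.38 (share 0.868). MFSD1 stood at 46.6 CPM in inhibitor-treated ketogenic replicate 1, against 54.9 to 55.9 (share 0.901). Ribosomal RNA took 4.1% in inhibitor-treated ketogenic replicate 3, against 7.87 to 8.37% (share 0.883). The total was 52.0 M in inhibitor-treated high fat replicate 1, against 58.1 to 59.2 (share 0.847).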

How the results depend on the processing

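RLE size factors (1432 genes), removal of ribosomal RNA genes (1442), no low-count filter (1074) and a stricter one (1590) stayed within 1.5 times the reported 1444. Library size alone gave 238 (95 above and 143 below 0, 39.9% above against 48.3%; 23 S phase genes; 58.82% lost), DESeq2 2487 (1273 and 1214; 12.75% blunted, 58.18% lost; 29 genes had no adjusted p) and limma voom with quality weights 5208 (2509 and 2699; 20.95% blunted, 55.89% lost, 20.6% reversed, 2.55% stronger). No filter gave 8.66% blunted. The ribosomal RNA share as covariate gave 30 genes (17 and 13; 1 S phase gene; 6.67% blunted, 50% lost, 30% reversed, 13.33% stronger), and dropping the 3 libraries over 30% gave 0 in each direction and 0 S phase genes. Dropping the least similar library of each high fat group, chosen after seeing the data, gave 1826 genes (23.49% reversed), and of each of the 4 groups 4795 (2314 and 2481; 7.07% blunted, 28.76% reversed). Leaving out single libraries gave 407 to 2636 genes, 203 to 1226 above and 204 to 1410 below 0, 15 to 42 S phase genes, and 5.93 to 17.22% blunted, 52.37 to 68.28% lost, 20.85 to 38.6% reversed and 0.17 to 2.31% stronger. A ratio bound of 0.5 gave 0.28% blunted, 83.59% lost, 13.16% reversed and 2.98% stronger, and sorting by which effects passed gave 0.62% blunted, 92.87% lost and 0.62% reversed. Every gene followed by name through the settings kept its sign except MAP2K2 (main 0.01), which had -0.006 without ribosomal RNA genes, -0.124 with voom, -0.03 without the least similar library of each group and -0.116 to 0.076 over single omissions. RRM2, CD36 and DCT, among others, were not followed. Most followed genes were chosen on these libraries, so kept signs are no independent sign of stability. All 92 that had passed lost the call without the 3 libraries over 30% ribosomal RNA. The call was lost for 81 with the ribosomal RNA covariate and for 54 with library size alone. Replicate numbers did not pair libraries: same-numbered deviations correlated at -0.153 to 0.207 (24 pairs, 4 over 0.1), and 3 of 16 libraries matched their own number best. A fit with the replicate block gave 1433 genes, 1246 of them shared, and 8.03% blunted. The causes of these moves were not tested. With a median SE of 0.24, small differences were not detectable.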

Other observations

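Genes with a difference above and below 0 differed in kind. This was noticed after the values were seen, and no test was made. Among genes with a single GENCODE location, 8.2% of all tested were not protein coding (1224 of 14856), against 13.5% of those above 0 (87 of 645) and 1.0% of those below 0 (7 of 723). Genes whose symbol begins with ZNF, most of them zinc finger transcription factors, numbered 512 among these 14856. Of the 512, 65 were above 0 (12.7%, against 645 of all 14856) and 3 below 0. By chromosome, among the same genes with a single location, the share past the test ran from 5.42% (chromosome 18) to 12.5% (chromosome 20). Of all 14856 such genes 1368 passed.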
